A study of Homo sapiens with 6 samples.

Results

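The genes described here are 39 genes of the unfolded protein response and the integrated stress response, taken by their symbols out of the 27009 genes of the expression table, as a list drawn up with earlier results of these data known. They fall into 14 genes of the ATF6/XBP1 arm, 5 stress sensors and eIF2α kinases, and 20 genes of the ATF4 arm. All 39 were in the table and all 39 reached the minimum level for testing.

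Unfolded proteins in the endoplasmic reticulum (ER) are detected by sensors in the ER membrane. ATF6 and the IRE1α product XBP1 drive genes for chaperones and for ER-associated degradation, the pathway that removes misfolded proteins. PERK and the other eIF2α kinases slow translation by phosphorylating eIF2α, which favors translation of the transcription factor ATF4. ATF4 and its partners then raise genes for amino acid supply, redox balance, feedback on eIF2α and, through CHOP, cell death. Liver cells secrete large amounts of protein, and these pathways are often active in hepatocellular carcinoma. Gene-level RNA values show neither the splicing of XBP1 nor the translation of ATF4.

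RNA sequencing was performed on Hep3B cells, labelled as a human liver cancer line, in which endogenous PD-L1 had been knocked out in every library. The vector group (3 libraries) carried the empty vector, and the nPD-L1 group (3 libraries) carried nPD-L1, a PD-L1 altered so that it is held in the nucleus, delivered with a lentivirus from a CMV promoter. The study calls the sequenced samples of a group independent. Whether they came from separate cultures, and whether the knockout line was a single clone, was not given in the sources used here, so the p values measure the spread between these libraries, which may be technical. The study asked how nuclear PD-L1 changes the gene expression of the tumor cells.

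The values were scaled reads, that is, reads per gene divided by a factor for each library, and they summed to between 18082164 and 19682128 per library. CD274, the gene for PD-L1, had 28.3, 38.4 and 47.8 scaled reads with the vector and 16.8, 19.2 and 30.9 with nPD-L1 (log2 fold change −0.76, standard error 0.34, adjusted p = 0.338 in limma). It was not higher where a PD-L1 sequence had been introduced, so the groups are called here the vector libraries and the libraries labelled nPD-L1, and each direction rests on those labels. Defining liver markers were close to absent. ALB, APOA1, APOB and TTR lay between 0 and 2.89 scaled reads in every library, and SERPINA1 between 7.91 and 41.4. HNF4A was low in all libraries, at 6.24 to 19.2 in vector and 33.8 to 51.6 in nPD-L1 libraries. It was called higher (log2 fold change 1.91, adjusted p = 0.0232 in limma), and the call held in 10 of 16 alternative analyses. AFP and GPC3 were not analysed here. Summed over the 6 hepatoma markers analysed, the level was 19.8 to 64.6 in vector and 56.9 to 77.9 in nPD-L1 libraries. Marker sums of lymphocytes and of endothelial cells did not exceed 6.06, and those of macrophages were 3.12 to 13.6 and 13.2 to 25.2. Of the fibroblast markers DCN was at 0 to 5.04, LUM at 99.9 to 182 in vector and 112 to 161 in nPD-L1 libraries (log2 fold change 0.10, adjusted p = 0.886 in limma), and COL1A1 at 49.9 to 82.8 in vector and 445 to 487 in nPD-L1 libraries (2.84, adjusted p = 7.99e-06). The part of these differences in the results below was not tested, and in bulk RNA fewer cells of a type and less RNA per cell cannot be told apart.

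In this comparison 6 of the 39 genes passed the test (adjusted p under 0.05 in limma), and all 6 belonged to the ATF4 arm. NUPR1 and DDIT4 rose, and GDF15, STC2, DDIT3 and PPP1R15A fell. Over all 15076 genes tested, 4.04% were called higher and 0.922% lower. In the ATF4 arm 8 of 20 genes had an unadjusted p under 0.05 in limma, as did 14.2% of all genes tested. No gene of the ATF6/XBP1 arm and no sensor was called in limma, although 1 gene of each had an unadjusted p under 0.05. edgeR and DESeq2, run on the 4 libraries whose reads were recovered, also called 0 of these genes. Over all genes tested they called 283 and 418. Fold changes are on the log2(scaled reads + 1) scale, nPD-L1 over vector.

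**Figure D1:**
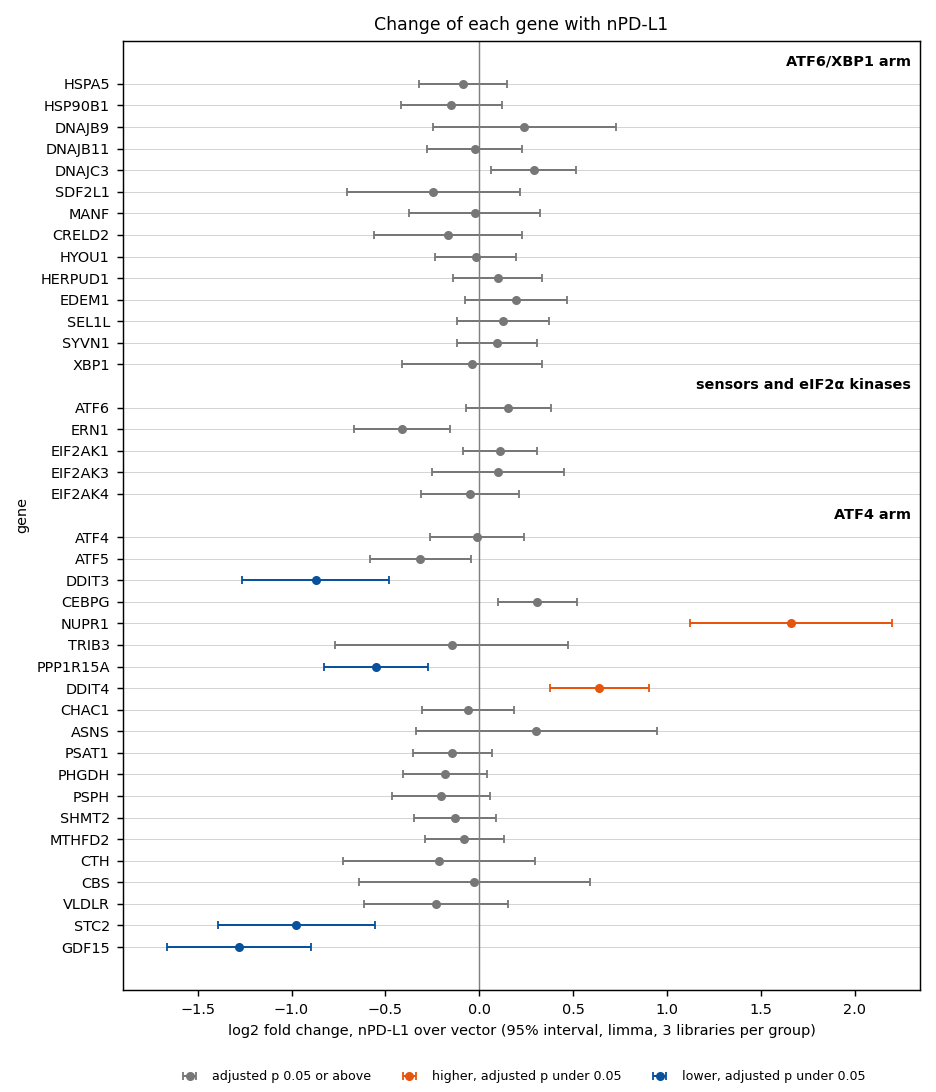
The log2 fold change of each of the 39 genes, nPD-L1 over vector (horizontal axis), with its 95% interval from limma on 3 libraries per group. NUPR1 and DDIT4 lie to the right in orange and GDF15, STC2, DDIT3 and PPP1R15A to the left in blue, all in the ATF4 arm, and the 14 genes of the ATF6/XBP1 arm lie between −0.24 and 0.29.

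Some promoters of the 39 genes carry the sequence elements by which these arms are usually told apart. The elements are shown for the pair of genes in each arm that had the highest levels among the genes with an element. RefSeq promoters (GRCh38.p14, 250 bases before to 50 after each start) were found for 35 of the 39 genes, and NUPR1, EIF2AK1, PSPH and SHMT2 had no entry. The ER stress response element (ERSE), the letters CCAAT and CCACG separated by 9 bases, was found on either strand in 4 of 14 ATF6/XBP1 arm genes (HSPA5, HSP90B1, XBP1 and CRELD2), in 0 of 17 ATF4 arm genes and in 0.0916% of 27305 genes. In the following stretches, 5′ to 3′ along the gene, capitals mark the element. Stretches that overlapped an annotated exon were shortened, and those of HSP90B1, CHAC1 and CEBPG lay inside the interval that the table gives for the gene. As printed, all 30 bases of the CHAC1 stretch still lay in an annotated exon, and the HSP90B1 stretches overlapped exons by 1 and 11 bases.
HSPA5, chr9:125241344-125241439, minus strand: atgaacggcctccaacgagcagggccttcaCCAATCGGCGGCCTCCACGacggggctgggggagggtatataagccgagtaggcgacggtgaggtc
HSP90B1, chr12:103930211-103930239, plus strand: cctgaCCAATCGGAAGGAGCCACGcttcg
HSP90B1, chr12:103930316-103930344, plus strand: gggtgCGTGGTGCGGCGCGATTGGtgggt
CHAC1, chr15:40953251-40953280, plus strand: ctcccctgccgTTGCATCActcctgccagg
CEBPG, chr19:33374041-33374112, plus strand: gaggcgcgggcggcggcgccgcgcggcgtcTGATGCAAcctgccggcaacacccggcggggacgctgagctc

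The HSPA5 stretch ended at its start site and held 1 ERSE, 66 to 48 bases before the start. HSP90B1 held 2, of which the stretch nearer the start read the element on the opposite strand. A related element, ERSE-II (ATTGG and CCACG separated by 1 base), was found in HYOU1, HERPUD1 and SDF2L1, 3 of 14, against 0.0696% of all genes. The core of the unfolded protein response element (TGACGTGG) occurred in HYOU1 only, where it overlapped an ERSE-II, against 0.927% of all genes. The C/EBP-ATF response element (TGATGNAA), which ATF4 and its partners bind, was found in 3 of 17 ATF4 arm genes (ASNS, CHAC1 and CEBPG) and in HERPUD1, against 4.46% of all genes. The CHAC1 and CEBPG elements printed above are the same letters on opposite strands. Of the 6 genes that passed the test, 5 had a promoter in the set, and none of these 5 held any of the 4 motifs in that window. These matches describe letters in a window and not binding.

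Among the sensors, none passed the test. ERN1, which encodes the kinase and endoribonuclease IRE1α that splices XBP1, came closest. It had 623, 610 and 535 scaled reads with the vector and 416, 457 and 453 with nPD-L1. All 3 nPD-L1 libraries were below all 3 vector libraries, and the log2 fold change was −0.41 (standard error 0.12, 95% interval −0.67 to −0.16, adjusted p = 0.081 in limma). ATF6, the membrane-bound transcription factor, ranged from 1105 to 1290 in vector and from 1251 to 1355 in nPD-L1 libraries, with overlap (0.16, adjusted p = 0.57 in limma). The eIF2α kinases EIF2AK1 (HRI), EIF2AK3 (PERK) and EIF2AK4 (GCN2) had log2 fold changes of 0.11, 0.10 and −0.05, and limma gave adjusted p values of 0.654, 0.824 and 0.884. EIF2AK1 was higher in all 3 nPD-L1 libraries (2995 to 3053) than in the vector libraries (2676 to 2868), but its interval of −0.09 to 0.31 included 0. It shares 1591 bases with AIMP2 on the opposite strand, whose mean scaled reads were 961 and 812 in the vector and nPD-L1 groups. The widest interval among the kinases was that of EIF2AK3, −0.25 to 0.45, whose vector libraries ran from 254 to 368.

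The ER chaperones showed no change that passed the test. HSPA5, the master ER chaperone BiP, had 18658, 21581 and 19035 scaled reads with the vector and 17937, 19038 and 18727 with nPD-L1. The groups overlapped, and the log2 fold change was −0.09 (standard error 0.11, 95% interval −0.32 to 0.15, adjusted p = 0.764 in limma). HSP90B1, the ER form of HSP90, had 15543, 20095 and 16054 against 14974, 15094 and 16268, a log2 fold change of −0.15 (interval −0.42 to 0.12, adjusted p = 0.654). Compared per length, as scaled reads per kilobase of gene length brought to a sum of 1000000 in each library, HSPA5 stood at 849 in the vector libraries, the highest of the 39 genes, followed by ATF4 at 629 and HSP90B1 at 614. ATF4 and HSP90B1 differed by less than the standard deviation of HSP90B1 (47.7).

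DNAJC3, the cochaperone p58IPK that also inhibits PERK, was the chaperone gene with the lowest p value. It had 1120, 1267 and 1221 scaled reads with the vector and 1350, 1514 and 1550 with nPD-L1, without overlap. Its log2 fold change of 0.29 (standard error 0.10, unadjusted p = 0.0173) did not pass the adjusted threshold (0.19 in limma). DNAJB9, a cochaperone that restrains IRE1α, had a fold change of 0.24 on the log2 scale with vector libraries from 408 to 773 and nPD-L1 libraries from 511 to 745, an interval of −0.25 to 0.73. SDF2L1, which works with BiP and its cochaperones, was at −0.24 (interval −0.71 to 0.22), and CRELD2, an ER folding factor of the stress response, at −0.17 (interval −0.56 to 0.23). DNAJB11, MANF and HYOU1, a cochaperone, a secreted BiP-binding factor and a nucleotide exchange factor of BiP, lay within 0.03 of 0. Of the 9 chaperones and cochaperones, 7 had a log2 fold change under 0 and 2 above, with a median of −0.02. Over all 15076 genes tested 8035 lay under 0 and 7041 above.

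The 4 genes of ER-associated degradation all had log2 fold changes above 0, and none passed the test. Of the 34 other genes of ER-associated degradation and translocation described below, 11 lay above 0 and 23 below. EDEM1, a mannosidase-like protein that marks glycoproteins for removal, was at 0.19 (interval −0.08 to 0.47), SEL1L, the scaffold of the ubiquitin ligase, at 0.12, and HERPUD1, which assembles the complex, at 0.10. SYVN1, the ligase HRD1 itself, had 925, 908 and 837 scaled reads in vector and 944, 946 and 959 in nPD-L1 libraries, so the groups did not overlap although the log2 fold change was 0.09 (adjusted p = 0.724 in limma). SYVN1 shares 694 bases with FAU and 5189 with MRPL49, and how reads in shared bases were counted was not given in the sources used here. XBP1, the transcription factor whose RNA is cut by IRE1α, had 4724, 6781 and 4036 against 4578, 5413 and 4807, a log2 fold change of −0.04 (interval −0.41 to 0.33).

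Vector replicate 2 stood high in this arm. It was the highest of the 3 vector libraries for 12 of the 14 genes (85.7%) and for all 9 chaperones and cochaperones, against 40.9% of all genes tested. It was the lowest for 1 of the 14, against 41.4% of all genes tested. It was also the highest for most of the 22 other ER folding and quality control genes described below. Over all genes tested, 883 and 1281 lay over 2-fold apart between it and vector replicates 1 and 3, against 602 between those libraries. The mean log2 level of the arm, set to 0 at the mean of the vector libraries, was −0.08, 0.22 and −0.15 in vector replicates 1, 2 and 3 and −0.07, 0.12 and 0.01 in nPD-L1 replicates 1, 2 and 3. The vector libraries therefore enclosed the nPD-L1 libraries, with a standard deviation among vector libraries of 0.20. By this mean, replicate 2 was the highest library in both groups. Without nPD-L1 replicate 2 the median log2 fold change of the arm went from −0.02 to −0.07. Without vector replicate 2 it went to 0.09, and still no gene of the arm passed the test. The lowest adjusted p values were then 0.0595 for DNAJC3 (0.33) and 0.0617 for DNAJB9 (0.50), both in limma. The directions of DNAJB11, SDF2L1, MANF, CRELD2 and XBP1 turned positive without that library, with values of 0.05, 0.01, 0.18, 0.06 and 0.17.

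**Figure D2:**
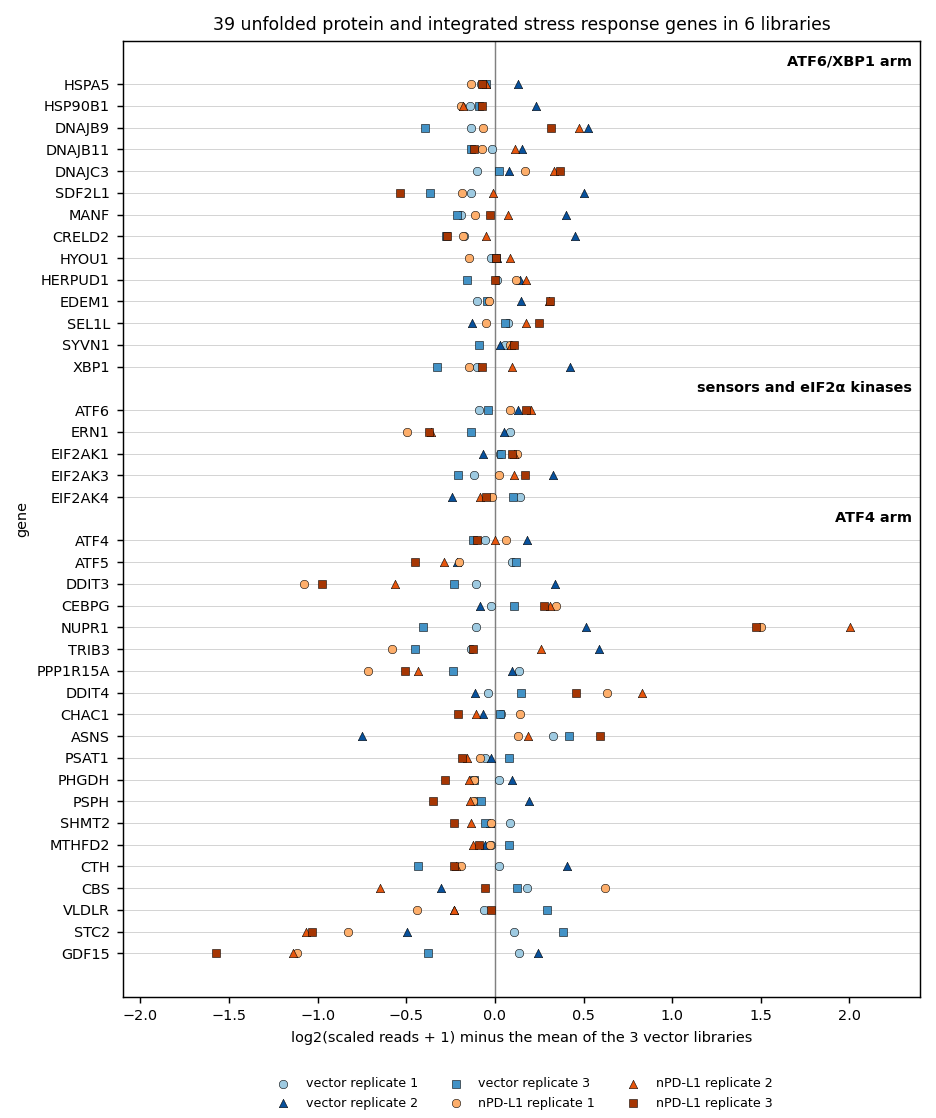
Each of the 39 genes (rows) in each of the 6 libraries, as log2(scaled reads + 1) minus the mean of the 3 vector libraries (horizontal axis). The dark blue triangles, vector replicate 2, lie to the right of the other vector libraries for all 9 chaperones and cochaperones and XBP1, while the orange and brown points separate from the blue ones for NUPR1, DDIT4, GDF15, STC2, DDIT3 and PPP1R15A.

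In the ATF4 arm, the transcription factor itself did not pass the test. ATF4 had 9031, 10640 and 8625 scaled reads with the vector and 9829, 9387 and 8770 with nPD-L1. The groups overlapped, and the log2 fold change was −0.01 (interval −0.26 to 0.24, adjusted p = 0.975 in limma). Its relative ATF5 had 1305, 1054 and 1327 against 1063, 1000 and 893, a log2 fold change of −0.31 (adjusted p = 0.245 in limma). Without vector replicate 2 the fold change was −0.42 and the adjusted p 0.0156 in limma, in a fit that called 1037 of all genes tested against 748. Over all alternatives the ATF5 value lay between −0.42 and −0.24. ATF5 shares 1062 bases with NUP62 on the opposite strand, whose mean scaled reads were 2308 and 2018 in the vector and nPD-L1 groups. CEBPG, a dimerization partner of ATF4, had 1853, 1781 and 2029 against 2389, 2341 and 2281, higher in all 3 nPD-L1 libraries, with a log2 fold change of 0.31 (standard error 0.09) and an adjusted p of 0.115 in limma.

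DDIT3 (ENSG00000175197, chromosome 12, 57516588 to 57521737, minus strand), which encodes CHOP, the transcription factor linked to cell death in prolonged ER stress, fell. Its scaled reads were 684, 930 and 627 with the vector and 349, 499 and 374 with nPD-L1. Every nPD-L1 library was below every vector library, and the log2 fold change was −0.87 (standard error 0.18, 95% interval −1.26 to −0.48, adjusted p = 0.0157 in limma). The call was lost without vector replicate 1 (adjusted p = 0.0552), nPD-L1 replicate 1 (0.108) or nPD-L1 replicate 3 (0.104), with fold changes from −1.02 to −0.70 over the 6 fits with a library left out. Leaving out these libraries also lowered the calls over all genes tested, from 748 to 485, 440 and 427. DDIT3 shares 982 bases with MARS and 1028 with MBD6 on the opposite strand. Since the library kit is not known to mark the strand, reads of these genes may not be told apart, and the mean scaled reads were 5127 and 5225 for MARS and 451 and 537 for MBD6 in the vector and nPD-L1 groups.

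PPP1R15A (ENSG00000087074, chromosome 19, 48872392 to 48876057), which encodes GADD34, the subunit that brings phosphatase to eIF2α and so closes the feedback loop, also fell. It had 3734, 3623 and 2883 scaled reads with the vector and 2068, 2511 and 2384 with nPD-L1. The groups did not overlap, and the log2 fold change was −0.55 (standard error 0.12, 95% interval −0.83 to −0.28, adjusted p = 0.0286 in limma). This was the weakest of the 6 calls. It was lost without vector replicate 1 (adjusted p = 0.171) and without nPD-L1 replicate 1, 2 or 3 (0.151, 0.0582 and 0.111). Calls over all genes tested also went from 748 to 485, 440, 489 and 427 in those fits.

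NUPR1 (ENSG00000176046, chromosome 16, 28532708 to 28539174), a small nuclear protein induced by stress, rose the most of the 39 genes. Its scaled reads were 89.8, 139 and 72.8 with the vector and 276, 391 and 271 with nPD-L1. The lowest nPD-L1 library was well above the highest vector library, and the log2 fold change was 1.66 (standard error 0.24, 95% interval 1.12 to 2.20, adjusted p = 0.00215 in limma), or 3.16-fold. Per length, at the given gene length of 5674 bases, NUPR1 had the lowest vector level of the 39 genes, 2.93, and 9.76 in nPD-L1 libraries. This rank depends on that length, since by mean scaled reads in the vector libraries CTH (96.96) was below NUPR1 (100.5). Its call held in all 6 fits that left out a library.

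DDIT4 (ENSG00000168209, chromosome 10, 72273920 to 72276036), which encodes REDD1, an inhibitor of mTORC1 signaling, rose as well. It had 2044, 1946 and 2327 scaled reads with the vector and 3258, 3727 and 2884 with nPD-L1. The groups did not overlap, and the log2 fold change was 0.64 (standard error 0.12, 95% interval 0.38 to 0.90, adjusted p = 0.00941 in limma). The call was lost without vector replicate 1 (adjusted p = 0.0652), nPD-L1 replicate 1 (0.0594) or nPD-L1 replicate 2 (0.0603). Calls over all genes tested also went from 748 to 485, 440 and 489 in those fits.

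The other feedback regulators of this group did not pass. TRIB3, a pseudokinase that restrains ATF4 and CHOP, had 3045, 5007 and 2439 scaled reads in vector and 2236, 4000 and 3061 in nPD-L1 libraries. The libraries of each group spread widely and overlapped, with a log2 fold change of −0.15 and an interval of −0.77 to 0.47, and without vector replicate 2 the value was 0.15. CHAC1, which degrades glutathione, had 2145, 2000 and 2136 against 2309, 1947 and 1808, a log2 fold change of −0.06 (interval −0.30 to 0.19, adjusted p = 0.858 in limma). Of the 9 transcription factors and feedback regulators of the ATF4 arm, 2 were called higher, 2 lower and 5 neither.

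**Figure D3:**
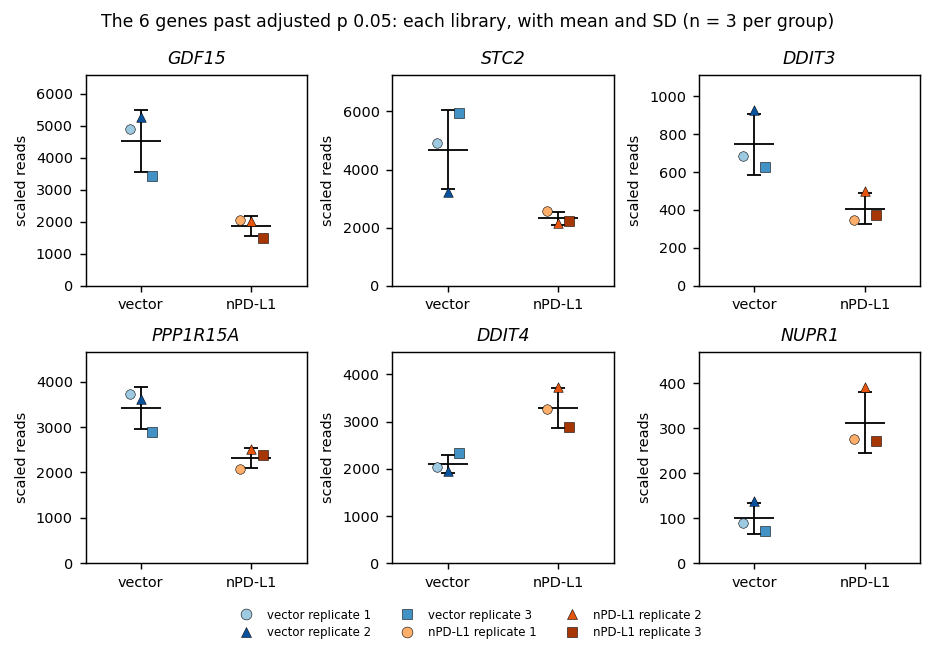
Scaled reads (vertical axis, from 0) of the 6 genes with an adjusted p under 0.05, in the 3 vector and 3 nPD-L1 libraries. Points are libraries, the long bar is the mean and the error bars are the SD, and in each panel all nPD-L1 libraries lie on one side of all vector libraries.

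The enzymes of amino acid and folate metabolism under ATF4 showed no call (0 of 8 in limma, edgeR or DESeq2). Over all 15076 genes tested these tools called 748, 283 and 418. At an unadjusted p under 0.05 there were 0 of 8, against 14.2% of all genes tested. Of the 8 enzymes 7 had log2 fold changes under 0, as did 8035 of all genes tested. PHGDH, PSAT1 and PSPH, which together make serine from a glycolytic intermediate, were at −0.18, −0.14 and −0.20. PSAT1 had 5935, 6072 and 6528 scaled reads with the vector and 5815, 5531 and 5420 with nPD-L1, without overlap, and its interval was −0.35 to 0.07 (adjusted p = 0.574 in limma). PSPH did not overlap either, from 1098 to 1361 in vector and from 934 to 1093 in nPD-L1 libraries. SHMT2 and MTHFD2, mitochondrial enzymes that move carbon units from serine to folate, were at −0.13 and −0.08. MTHFD2 had the second highest level per length of the enzymes, 223 in the vector libraries after 476 for PSAT1.

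ASNS, asparagine synthetase and a classic ATF4 target, was low, with 159, 74.5 and 168 scaled reads with the vector and 138, 144 and 190 with nPD-L1. Its fold change of 0.30 on the log2 scale had an interval of −0.34 to 0.94, and without vector replicate 2 it was −0.07. CTH and CBS, enzymes of transsulfuration, had intervals of −0.73 to 0.30 and −0.64 to 0.59. CBS is uncertain, because the table also lists the near-identical gene CBSL, and how reads were divided between them was not given in the sources used here. The median log2 fold change of the 8 enzymes was −0.14, against −0.02 over all genes tested.

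The largest falls were in genes for secreted proteins. GDF15 (ENSG00000130513, chromosome 19, 18374731 to 18389176), a circulating stress hormone of the TGF-β family, had 4889, 5270 and 3427 scaled reads with the vector and 2052, 2021 and 1494 with nPD-L1. All 3 nPD-L1 libraries were far below the lowest vector library. The log2 fold change was −1.28 (standard error 0.17, 95% interval −1.66 to −0.89, adjusted p = 0.00131 in limma), a level 0.413 times that of the vector libraries. GDF15 was called in all 17 alternative analyses, with adjusted p values up to 0.0233. It overlaps MIR3189 on the same strand by 73 bases, whose mean scaled reads were 15.8 and 2.47 in the vector and nPD-L1 groups.

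STC2 (ENSG00000113739, chromosome 5, 173314713 to 173329503), stanniocalcin 2, a secreted glycoprotein induced by ER stress, fell too. Its scaled reads were 4900, 3221 and 5941 with the vector and 2558, 2175 and 2218 with nPD-L1. The vector libraries spread widely, with vector replicate 2 the lowest, but did not overlap the nPD-L1 libraries, and the log2 fold change was −0.98 (standard error 0.19, 95% interval −1.39 to −0.56, adjusted p = 0.0118 in limma). The call was lost without vector replicate 1 (adjusted p = 0.074), nPD-L1 replicate 1 (0.0544) or nPD-L1 replicate 3 (0.0805). Calls over all genes tested also went from 748 to 485, 440 and 427 in those fits. VLDLR, a lipoprotein receptor, had 261, 233 and 336 against 202, 233 and 269, with overlap, and its log2 fold change of −0.23 did not pass (adjusted p = 0.63 in limma).

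Set side by side, the arms differed in how far their genes moved. The 14 genes of the ATF6/XBP1 arm had log2 fold changes from −0.24 to 0.29, with a median of −0.02 and a median size of 0.11. The 20 genes of the ATF4 arm ran from −1.28 to 1.66, with a median of −0.15 and a median size of 0.22. Over all genes tested the median was −0.02 and the median size 0.16. In the ATF4 arm 16 genes lay below 0 and 4 above, in the ATF6/XBP1 arm 8 below and 6 above. Over all 15076 genes tested 8035 lay below 0 and 7041 above. Of the 22 other ATF4 and CHOP targets described below, 10 lay below and 12 above. The medians of the arms differed by 0.12, between 0.08 and 0.21 over the alternative analyses, and this difference was described and not tested.

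Counted by libraries, 6 of the 39 genes were higher in all nPD-L1 than in all vector libraries (DNAJC3, SYVN1, EIF2AK1, CEBPG, NUPR1 and DDIT4) and 7 were lower (ERN1, DDIT3, PPP1R15A, PSAT1, PSPH, STC2 and GDF15). Over all genes tested, 12.0% did not overlap in the higher and 8.54% in the lower direction. The ATF6/XBP1 arm had 2 such genes in the higher direction and 0 in the lower, and the ATF4 arm had 3 and 6. The mean log2 level of the 3 genes for secreted proteins and the receptor was 0.06, −0.16 and 0.10 with the vector and −0.79, −0.81 and −0.88 with nPD-L1, where the libraries were closely grouped. This mean rests mostly on GDF15 (log2 fold change −1.28) and STC2 (−0.98), while VLDLR (−0.23) overlapped between the groups. The mean over the 9 transcription factors and feedback regulators, which holds genes that moved in both directions, overlapped between the groups.

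**Figure D4:**
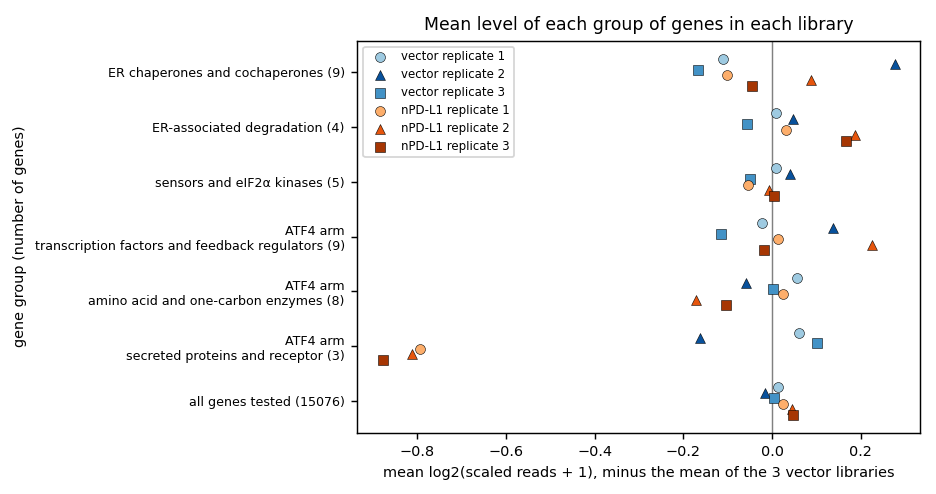
Mean level of each group of genes (rows, with the number of genes) in each library, as log2(scaled reads + 1) minus the mean of the 3 vector libraries (horizontal axis). The secreted proteins and receptor lie at −0.79 to −0.88 in the nPD-L1 libraries, and the chaperones reach 0.28 in vector replicate 2, above all 5 other libraries. The former mean holds GDF15 and STC2, which fell, and VLDLR, which did not pass the test.

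Other genes of the same pathways, in 7 lists that leave out the 39, were read in the same way. Of 22 other ER folding and quality control genes, such as disulfide isomerases and calreticulin, 0 were called in limma, with 0 at an unadjusted p under 0.05 (14.2% of all genes tested), and the median log2 fold change was −0.05. Of 34 genes of ER-associated degradation and translocation 0 were called and 2 had an unadjusted p under 0.05, with a median of −0.02. The 15 other unfolded protein response factors, the 20 cytosolic aminoacyl-tRNA synthetases and the 15 genes of eIF2, eIF2B and their regulators had 0 calls, with 0, 0 and 1 genes at an unadjusted p under 0.05 and medians of −0.06, −0.05 and −0.02. In all 5 of these lists edgeR and DESeq2 on 4 libraries made 0 calls as well, against 283 and 418 over all genes tested.

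Among 22 other ATF4 and CHOP targets 5 were called higher and 0 lower, with a median of 0.01. An unadjusted p under 0.05 in limma was found for 8 of 22, against 14.2% of all genes tested. Over all genes tested 4.04% were called higher and 0.922% lower. VEGFA, the angiogenic growth factor, had 1044, 787 and 1134 scaled reads with the vector and 2588, 2259 and 2340 with nPD-L1. It was above the vector range in every nPD-L1 library, with a log2 fold change of 1.29 (standard error 0.14, adjusted p = 0.00023 in limma). KLHL24, a ubiquitin ligase adaptor, had 189, 276 and 135 against 408, 526 and 546, a log2 fold change of 1.35 (adjusted p = 0.00583), which was 0.0532 without nPD-L1 replicate 3, 0.104 in edgeR and 0.0693 in limma on 4 libraries. The other 3 are named because they are few, and were chosen after their values were seen. ATF3, a stress-induced transcription factor, had 1037, 1106 and 1003 against 2303, 2752 and 2651, a log2 fold change of 1.29 (adjusted p = 3.27e-05 in limma), and it was called in all 17 alternative analyses. JDP2, a repressor that pairs with ATF3 and JUN, was at 0.91 (adjusted p = 0.00411 in limma), and on 4 libraries its adjusted p was 0.128 in edgeR, 0.114 in DESeq2 and 0.136 in limma. CEBPB, a C/EBP transcription factor, was at 0.53 (adjusted p = 0.0328 in limma). CEBPB was lost without vector replicate 1 (adjusted p = 0.134), vector replicate 3 (0.0719), nPD-L1 replicate 1 (0.166) or nPD-L1 replicate 2 (0.154), with upper-quartile factors (0.063), and on 4 libraries in edgeR, DESeq2 and limma (0.47, 0.384 and 0.429).

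Of 10 amino acid transporters of the ATF4 program 1 was called, in the higher direction. An unadjusted p under 0.05 in limma was found for 4 of 10, against 14.2% of all genes tested. Over all genes tested 4.04% were called higher and 0.922% lower. SLC1A4, a carrier of alanine, serine and cysteine, had 789, 736 and 824 scaled reads with the vector and 1427, 1363 and 1356 with nPD-L1. The groups were far apart relative to their spread, with a log2 fold change of 0.82 (standard error 0.10, adjusted p = 0.000549 in limma). The other 9 transporters did not pass, and the median of the list was −0.04.

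**Figure D5:**
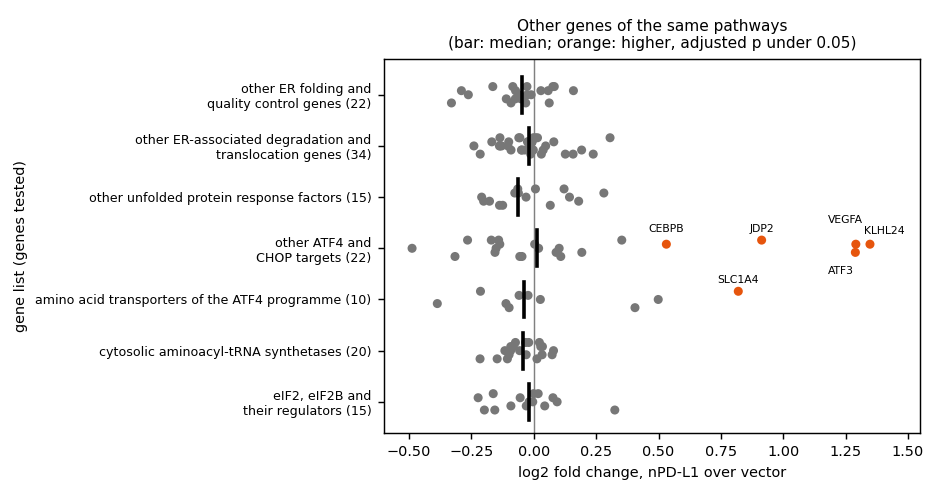
Log2 fold change, nPD-L1 over vector (horizontal axis), of each gene in the 7 other pathway lists (rows, with the number of genes tested). Points are genes, the black bar is the median, and the 6 orange points at 0.53 to 1.35 are the genes with an adjusted p under 0.05, 5 among the other ATF4 and CHOP targets and 1 among the transporters.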

How the data were processed

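RNA from the 6 libraries (TRIzol, NEBNext Ultra kit) was sequenced by a company. Per the submitters' processing notes, CASAVA, HISAT2 (version 2.0.5) and hg38 were used, and the counting tool, its strand setting and the annotation were not given in the sources used here. The authors deposited, as signal, reads per gene scaled by a factor of each library, which the values themselves show. Group means, a fold change and p values by the authors stand beside them and were not used. Whole reads were recovered from 4 libraries (100% of values within 0.05 of a whole number) and amounted to 17427519 to 22253295 reads. Vector replicate 1 and nPD-L1 replicate 2 also had 100% of values within 0.05 of a whole number. They were left out because the value of 1 read, 1.01 in both, was judged too near 1.

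Groups and replicate numbers came from the sample titles. limma (version 3.58.1, R 4.3.3, trend and robust moderation) was run on log2(value + 1) for the 15076 genes that reached 10 in 3 or more libraries, with Benjamini-Hochberg adjustment over all of them, two-sided. The pseudocount understates the changes of low genes. Counting error was not separated from the spread between libraries, and it weighs more on genes with few reads, such as CD274, HNF4A and ASNS. The recovered reads were tested with edgeR 4.0.16 and DESeq2 1.42.0, and the scripts were tested on simulated data. Alternatives were other scalings, filters, pseudocounts and thresholds, non-robust moderation, a replicate block and each library left out, and limma on the same 4 libraries was added after seeing the data. The 39 genes, the lists and the motifs were chosen with earlier results of these data known. Named beyond the 39 are CD274, the markers and, of each other list, at most 2 called genes at either end, unless a small count needed its names. Levels per length used the gene lengths of the table.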

Additional observations from a re-analysis of the deposited data

How the results depend on the processing

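GDF15 was the only one of the 6 genes called in all 17 alternatives, and NUPR1 lost its call in edgeR on 4 libraries alone (adjusted p = 0.0541). DDIT4 and PPP1R15A lost theirs in all 3 fits on 4 libraries (adjusted p up to 0.343 and 0.378) and STC2 in edgeR and limma (0.16 and 0.162), where fewer libraries were used. Over all 39 genes and 17 alternatives, 612 values kept direction and side of the threshold, 22 lost and 2 gained a call, and 27 turned direction, none of them a called gene.

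The members called higher, all in the ATF4 arm, went from 2 to 1 or 2 with a library left out, 0 in edgeR, 1 in DESeq2 and 1 in limma on 4 libraries, 1 with a log2 fold change of at least 1, and 4 at an unadjusted p. Those called lower, 4 and all in the ATF4 arm, numbered 1 to 5 with a library left out, 2 in edgeR and 2 in limma on 4 libraries, and 1 with the fold threshold. Over all genes tested the calls went from 748 to between 427 and 1037 with a library left out. On 4 libraries they were 283 in edgeR, 418 in DESeq2 and 307 in limma. At an unadjusted p, 1 gene of the ATF6/XBP1 arm was higher. Upper-quartile factors moved the ATF4 arm's median to −0.20 and the median of all genes from −0.02 to −0.07. In the other pathway lists the genes called higher went from 6 to 5 with upper-quartile factors, 3 in edgeR and limma on 4 libraries, 3 with the fold threshold and 12 at an unadjusted p, and numbered 5 to 9 with a library left out. Those called lower went from 0 to 1 with upper-quartile factors, without the filter and with the replicate block, to 0 or 1 with a library left out and to 3 at an unadjusted p. The causes were not tested.

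Deviations of samples with the same number had correlations of −0.01, 0.23 and 0.13 for numbers 1, 2 and 3. For numbers 2 and 3 these were the highest across the groups, while the libraries numbered 1 correlated better with others. Whether the numbers pair the libraries was not settled by these values, and the numbers are not known to mark a shared culture. With the replicate block 2 members were higher and 5 lower, the added gene being ERN1 (adjusted p = 0.042), and 1185 genes were called in place of 748.

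Among the genes whose direction turned, DNAJB11 ranged from −0.093 to 0.053 with a library left out, SDF2L1 from −0.43 to 0.0064, MANF from −0.13 to 0.18, CRELD2 from −0.31 to 0.059, HYOU1 from −0.070 to 0.045, XBP1 from −0.20 to 0.17, EIF2AK3 from −0.0031 to 0.27, EIF2AK4 from −0.17 to 0.021, ATF4 from −0.073 to 0.078, TRIB3 from −0.37 to 0.15, CHAC1 from −0.16 to 0.019, ASNS from −0.070 to 0.51 and CBS from −0.35 to 0.28. In edgeR, DESeq2 and limma on 4 libraries EIF2AK4 was at 0.035, 0.029 and 0.039, and CBS at 0.40, 0.40 and 0.37. With 3 libraries per group, the interval of HSPA5 leaves room for a change of up to 0.32 on the log2 scale, and those of ASNS, CBS and TRIB3 for up to 0.94, 0.64 and 0.77.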
